A study of Betula luminifera with 4 samples.

Results

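ABC transporters and DETOXIFICATION proteins, the plant members of the MATE family, were described in roots and shoots of the birch Betula luminifera with and without phosphate. A member was an assembled gene (called a contig below) with a plant match, whose Swiss-Prot name, or whose Nr name where Swiss-Prot gave none, contained "ABC transporter" or "DETOXIFICATION". A plant match meant a best hit in the walnut Juglans or in Arabidopsis thaliana. This gave 284 members among 26828 plant-matched contigs and 76899 contigs in all. By name, 61 were ABC subfamily B (ABCB), 59 subfamily C (ABCC), 62 subfamily G (ABCG), 71 DETOXIFICATION (DTX) and 31 of the other ABC subfamilies. Names give the best-matched protein, with an Arabidopsis match for 267 members, and do not state orthology.

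RNA came from a single clone, G49#, whose tissue-culture seedlings were 2 months old when moved to sand. They received a normal mineral medium for 2 weeks and deionized water for 2 weeks. The control group (CK) then received medium with 1.25 mM phosphate, and the other group (LP) received medium with 0 mM phosphate in which potassium sulfate replaced the potassium. There was 1 poly(A) library each of CK roots, LP roots, CK shoots and LP shoots, shoot RNA being an equal mixture of stem and leaf RNA, drawn from an experiment of 54 plants. How many plants a library represents and how long LP lasted are not stated in the labels. With 1 library per group no test was possible, so each difference below is between libraries and has no replicate check.

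ABC transporters bind and hydrolyse ATP to move molecules across membranes. Subfamily B holds carriers of auxin and of plastid and mitochondrial cargo, subfamily C mostly loads conjugates, anthocyanins and phytate into the vacuole, and subfamily G moves cuticle lipids, hormones and defence compounds across the plasma membrane. MATE proteins exchange ions for organic solutes. In Arabidopsis DTX42 and DTX43 release citrate, an acid that frees phosphate and chelates aluminium and iron, while DTX41 and DTX35 act on flavonoids at the vacuole.

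Features that the selection did not use mostly went with the family or subfamily named. They are annotations of the same contigs, so they are not separate evidence for the names. The MatE domain of Pfam was annotated on 62 of the 71 DTX contigs, and an ABC transporter domain on 174 ABC contigs. The latter were 54 of 61 ABCB, 46 of 59 ABCC, 51 of 62 ABCG and 23 of 31 other ABC contigs. Vacuole was among the Gene Ontology terms of 49 members, of which 44 were ABCC, and plasma membrane among those of 115, including 61 of the 62 ABCG contigs and 34 ABCC contigs. One member, named "ABC transporter 1, mitochondrial", carried the Pfam domain ABC1 and ubiquinone biosynthesis terms in place of an ABC transporter domain. The number within a subfamily was less certain. The Nr match gave the same subfamily and number for 172 members, another for 54 (22 of them ABCB) and none for 58. The 284 contigs carried 120 protein names, 62 of them on more than 1 contig, and 83 contigs shared an assembly locus with another member. Their median length was 640 bp (202 to 5483 bp), and 105 were shorter than 400 bp. Many contigs are therefore fragments, and reads of close relatives may be split among them.

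Levels are in TPM, transcript abundances corrected for contig length that sum to nearly the same total in every library. Plant-matched contigs held 52.2% (CK) and 40.5% (LP) of the TPM in roots, against 63.8% (CK) and 59.7% (LP) in shoots. Over 11284 plant-matched contigs of at least 1 TPM in every library, log2 TPM was taken relative to each contig's mean over the libraries. The median of these values in LP less that in CK was -0.62 in roots and 0.12 in shoots. Values called scaled are relative to these shifts. Whole fragments could be read from the steps between low values, and 3 fragments of a 400 bp contig were worth 0.524 (CK) and 0.266 TPM (LP) in roots and 0.631 (CK) and 0.53 TPM (LP) in shoots. These steps cover counting error only. Photosystem I transcripts, a shoot marker, summed to 44.4 and 76.1 TPM in CK and LP roots and to 6202 and 4580 TPM in CK and LP shoots. Chlorophyll a-b binding transcripts summed to 314 TPM in CK roots but 3774 TPM in LP roots, and a Casparian strip protein of the root endodermis stood at 94.3 (CK) and 20 TPM (LP) in roots. Several other names tied to roots were not specific to them here. SHORT-ROOT summed to 48.3 (CK) and 3.54 TPM (LP) in roots and 46.3 (CK) and 34.2 TPM (LP) in shoots, and peroxidase 64 to 5.11 (CK) and 0 TPM (LP) in roots and 31.2 (CK) and 21.3 TPM (LP) in shoots. Root cap, RCc3 and lateral root primordium names summed to 20.9 (CK) and 29.7 TPM (LP) in roots and 1089 (CK) and 955 TPM (LP) in shoots, while high-affinity nitrate transporter 2 was higher in roots, at 88.8 (CK) and 62.4 TPM (LP) against 16.7 (CK) and 29.5 TPM (LP) in shoots. Yeast-matched contigs held 0.789% (CK) and 2.07% (LP) of the root TPM. The part of these differences in the results below was not tested.

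Every member reached 1 TPM in some library, and 122 were above 0 in every library. Above 0 were 161 (CK) and 192 (LP) members in roots and 224 (CK) and 235 (LP) in shoots, or 56.7%, 67.6%, 78.9% and 82.7%. The same shares over plant-matched contigs were 59.3%, 74.7%, 83.5% and 87.9%. Summed over members, the level was 5418 (CK) and 2765 TPM (LP) in roots and 4608 (CK) and 4551 TPM (LP) in shoots. The LP root library held the lowest sum and the other libraries lay near each other.

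The comparison of media in roots asked which transporters differ when phosphate is missing. DTX and ABCB contigs were more often lower than higher in LP roots, ABCC contigs were more often higher, and ABCG contigs were split. Among contigs of at least 400 bp the ABCC group was nearly evenly split. A contig was called higher or lower where log2((LP + 1)/(CK + 1)) was 1 or more, or -1 or less, and the larger TPM reached 1; this is called the size rule. By this rule 60 members were higher in LP roots and 86 were lower. Among contigs of any origin, 49% were higher and 17.1% lower. Over plant-matched contigs 26.5% were higher and 26.2% lower, so members were lower somewhat more often (30.3%) and higher less often (21.1%).

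The groups stood on different sides of that background. Of the DTX contigs 12 were higher and 32 lower (45.1%), and of the ABCB contigs 11 were higher and 24 lower (39.3%). Of the ABCC contigs 17 were higher (28.8%, near the 26.5% of plant-matched contigs) and 8 lower (13.6%, against 26.2%). Of the ABCG contigs 12 were higher and 15 lower, and of the other ABC contigs 8 and 7. After scaling, 15 DTX contigs were higher and 27 lower, 12 and 21 ABCB, 20 and 6 ABCC, 13 and 11 ABCG, and 15 and 3 other ABC, against a scaled background of 31.9% higher and 20% lower. Scaling thus turned the split of the ABCG group and widened that of the other ABC group. The DTX and ABCB groups kept more lower than higher contigs. Among contigs of at least 400 bp, 9 of 42 DTX contigs were higher and 23 lower, and 7 of 45 ABCB contigs were higher and 21 lower. Of 33 ABCC contigs of that length 9 were higher (27.3%) and 7 lower (21.2%). The shares over plant-matched contigs of that length were 24.5% higher and 30.4% lower.

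Many contigs had no signal in either root library, and the median log2 ratio over all contigs was 0.00 in each of the DTX, ABCB, ABCC and ABCG groups. Among contigs above 0 in both root libraries the median was -1.66 for 41 DTX contigs (-1.12 scaled) and -1.67 for 30 ABCB contigs (-1.33 scaled). It was 0.42 for 24 ABCC contigs (0.95 scaled), -0.10 for 23 ABCG contigs (0.35 scaled) and -0.55 over 14395 plant-matched contigs (-0.01 scaled). Members varied widely around these medians. The ABCB contigs ran from -6.73 to 5.42 and the DTX contigs from -4.99 to 4.23. Of the 120 names, 15 had contigs called in both directions in roots, 27 had contigs called higher with none lower, and 42 the reverse.

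**Figure D1:**
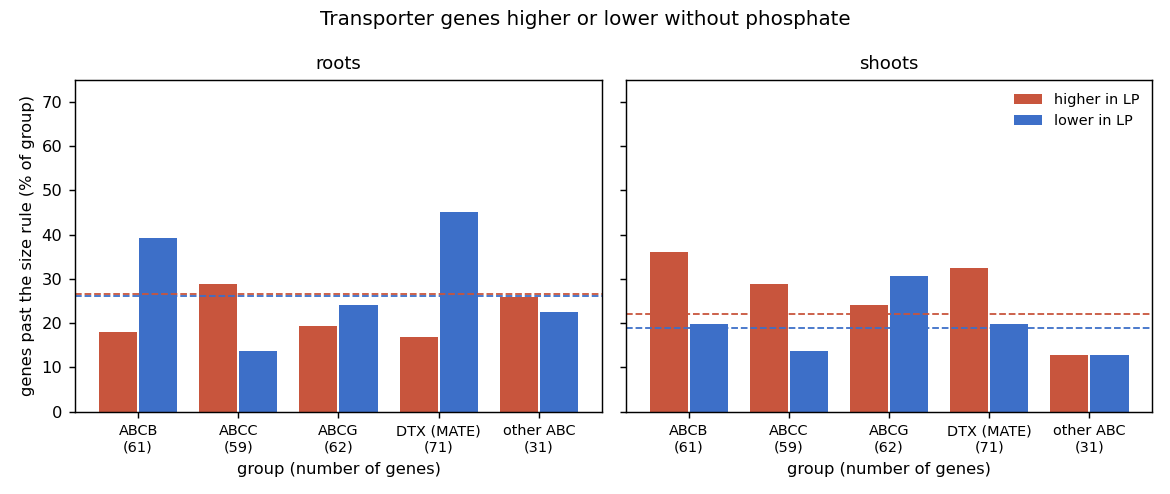
Share of each transporter group (percent of its contigs) called higher (red) or lower (blue) in LP than in CK, in roots (left) and shoots (right), with the number of contigs under each group and dashed lines at the same shares over all plant-matched contigs. In roots the blue bars of DTX (45.1%) and ABCB (39.3%) stand above the blue line at 26.2%, and that of ABCC (13.6%) below it.

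Among MATE transporters, the contigs matched to the citrate carriers stood high in CK roots and lower in LP roots. The DTX42 contig of 631 bp had the highest mean level of the DTX group, with 360.1 (CK) and 34.4 TPM (LP) in roots and 3.68 (CK) and 7.76 TPM (LP) in shoots. It was 10.5-fold lower in LP than in CK roots, with a log2 ratio of -3.35 (-2.74 scaled). Its best Nr match was a FRD3-type MATE of mulberry, FRD3 being another name of DTX43. DTX43, the carrier that loads citrate into Arabidopsis xylem for iron transport, was named on a 1011 bp contig of the same assembly locus. That contig had 63.3 (CK) and 10.4 TPM (LP) in roots and 2.07 (CK) and 2.45 TPM (LP) in shoots, a 6.1-fold lower level in LP roots (log2 ratio -2.50, -1.92 scaled). Both contigs were thus highest in CK roots and were low in shoots under either medium.

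The remaining 6 DTX42 contigs varied in their shoot levels. The 367 bp contig had 70.2 (CK) and 5.41 TPM (LP) in roots and 5.07 TPM in CK shoots, and was listed at 0 in LP shoots. The 626 bp contig had 40.1, 8.60, 20.1 and 2.80 TPM in the same order, and the 1796 bp contig 13.8, 3.66, 13.3 and 10.7 TPM. Only the 299 bp contig was listed at 0 in both root libraries. Of the 8 contigs named DTX42 or DTX43, 7 were lower in LP roots and 0 higher, with or without scaling. In shoots 1 was higher and 3 were lower. The shares over plant-matched contigs were 26.5% higher and 26.2% lower in LP roots, and 22.1% and 18.9% in LP shoots. Summed over its 7 contigs, DTX42 was at 562 (CK) and 61.5 TPM (LP) in roots and 61.4 (CK) and 31.4 TPM (LP) in shoots.

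**Figure D2:**
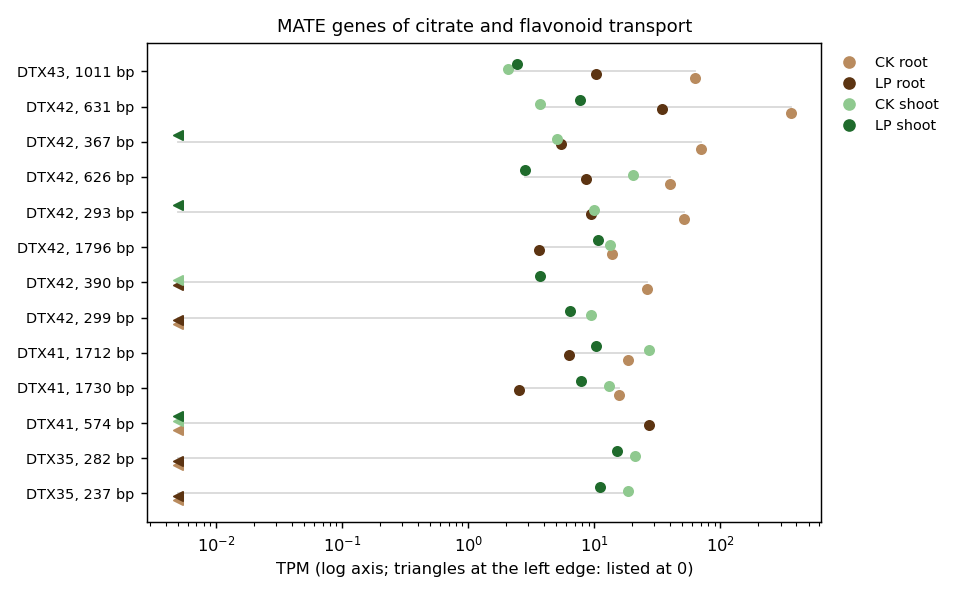
TPM (log axis) of each contig named DTX43, DTX42, DTX41 or DTX35 in CK roots (light brown), LP roots (dark brown), CK shoots (light green) and LP shoots (dark green), with triangles at the left edge for values listed at 0. In 7 of the 8 DTX42 and DTX43 contigs the light brown point lies farthest right, up to 360.1 TPM, while both DTX35 contigs have points in shoots alone.

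Contigs matched to the flavonoid carriers did not share this pattern. DTX41, known as TT12 in Arabidopsis, where it carries tannin precursors into the seed-coat vacuole, was named on 3 contigs of a single locus. The 1712 bp contig had 18.4 (CK) and 6.30 TPM (LP) in roots and 27.1 (CK) and 10.3 TPM (LP) in shoots, and was lower in LP in both tissues (log2 ratios -1.41 and -1.32). After scaling its root ratio was -0.86 and no longer passed the size rule. The 1730 bp contig had 15.7, 2.52, 13.1 and 7.78 TPM in the same order. The 574 bp contig went the other way, with 27.2 TPM in LP roots and 0 listed in the other libraries, so the DTX41 sum was 34.1 TPM in CK roots and 36.0 in LP roots. DTX35, which acts in Arabidopsis flavonoid metabolism and vacuolar chloride transport, was listed at 0 in both root libraries on both of its contigs. Its 282 bp contig had 20.8 (CK) and 15.1 TPM (LP) in shoots, a difference smaller than the size rule asks.

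Among other MATE contigs, several of the most abundant were also lower in LP roots. DTX44 of 1495 bp had 92.5 (CK) and 9.29 TPM (LP) in roots and 45.8 (CK) and 43.4 TPM (LP) in shoots, so that LP roots stood apart from the other libraries (log2 ratio -3.18 in roots, -0.08 in shoots). DTX54 of 717 bp had 54.4, 0.74, 1.29 and 3.11 TPM in the same order. DTX49 of 1878 bp had 52.2, 6.71, 6.22 and 8.54 TPM, high in CK roots alone. DTX33, a vacuolar chloride channel in Arabidopsis, was carried by 3 short contigs, and the one of 338 bp had 116 TPM in CK roots, 0 in LP roots and CK shoots and 6.41 in LP shoots. These values came from about 440 fragments in CK roots and 24 in LP shoots.

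Some MATE contigs were higher in LP roots. DTX46, a relative of the salicylic acid exporter EDS5, had 15.6 (CK) and 43.1 TPM (LP) in roots and 55.2 (CK) and 37.7 TPM (LP) in shoots on its 890 bp contig (log2 ratio 1.41 in roots). Its 246 bp contig went the opposite way in roots, from 92.9 to 23.9 TPM, and the sum over 4 DTX46 contigs was 116 TPM in CK roots and 69.7 in LP roots. DTX56 of 548 bp, matched to a guard-cell protein of carbon dioxide signalling in Arabidopsis, was at 15.8 (CK) and 35.4 TPM (LP) in roots and 0.32 (CK) and 2.43 TPM (LP) in shoots. DTX53 of 210 bp was at 1.64 TPM in CK roots and 48.7 in LP roots and was listed at 0 in shoots. DTX40 of 1723 bp was at 9.11, 13.1, 13.7 and 19.0 TPM in CK roots, LP roots, CK shoots and LP shoots, and passed the size rule in roots only after scaling (log2 ratio 0.47, 1.06 scaled).

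Subfamily B held the member with the highest mean level. The 1522 bp contig of ABCB14, a malate importer of Arabidopsis guard cells that has also been tied to auxin transport in stems, had 182.7 (CK) and 3.50 TPM (LP) in roots and 729.4 (CK) and 196.2 TPM (LP) in shoots. It was 52.2-fold lower in LP than in CK roots (log2 ratio -5.35) and 3.72-fold lower in LP shoots (-1.89). LP was thus lower in both tissues, and shoots exceeded roots under either medium. This contig made up 729.4 of the 1435 TPM of ABCB in CK shoots.

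The auxin carriers of subfamily B differed among themselves. ABCB19, which with ABCB1 drives long-distance auxin export in Arabidopsis, had 13.5 (CK) and 1.73 TPM (LP) in roots and 23.2 (CK) and 15.6 TPM (LP) in shoots on its 3446 bp contig, 7.81-fold lower in LP roots (log2 ratio -2.41, -1.97 scaled). ABCB1 on a 4119 bp contig had 13.8, 5.16, 39.2 and 38.4 TPM in the same order, and its root ratio of -1.26 became -0.72 after scaling. Of the 5 contigs with these 2 names, 4 were lower in LP roots and 0 higher, or 2 and 0 after scaling. Over plant-matched contigs 26.2% were lower and 26.5% higher, or 20% and 31.9% after scaling.

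ABCB4 and ABCB21 are close relatives that carry auxin in Arabidopsis roots, and their leading contigs went opposite ways in LP roots. The 2248 bp contig of ABCB4 had 0.91 (CK) and 20.8 TPM (LP) in roots and 46.7 (CK) and 3.83 TPM (LP) in shoots. It was 22.9-fold higher in LP roots and 12.2-fold lower in LP shoots. The 1823 bp contig of ABCB21 had 114.4, 4.93, 7.04 and 24.9 TPM in the same order, 23.2-fold lower in LP roots and 3.54-fold higher in LP shoots. These leading contigs thus had mirror-image patterns, which not all contigs of the names shared. The 633 bp contig of ABCB21 had 0, 2.34, 60.7 and 2.98 TPM in the same order, the directions of the ABCB4 contig. The 1103 bp contig of ABCB21 was also higher in LP roots, at 8.52 (CK) and 20.9 TPM (LP). Over 8 contigs ABCB4 summed to 0.91 (CK) and 35 TPM (LP) in roots and 129 (CK) and 44.2 TPM (LP) in shoots, and over 5 contigs ABCB21 summed to 209, 50.0, 85.9 and 68.6 TPM. The sums kept the root directions of both and the shoot direction of ABCB4, whereas the ABCB21 sum was slightly lower in LP shoots (log2 ratio -0.32). Because these relatives are similar in sequence, reads could have been split among their contigs.

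Some contigs of subfamily B matched carriers of organelles. The 714 bp contig of ABCB25, the mitochondrial exporter needed for cytosolic iron-sulfur proteins, had 47.1 (CK) and 7.38 TPM (LP) in roots and 32.5 (CK) and 56.2 TPM (LP) in shoots. ABCB27, a tonoplast protein of aluminium tolerance (ALS1), had 40.5, 16.1, 21.9 and 37.8 TPM on a 1654 bp contig, and its root ratio of -1.28 became -0.68 after scaling. ABCB26, named on 3 contigs, was nearly level on the 2371 bp contig, at 58.5, 51.7, 32.2 and 27.7 TPM. Its 1308 bp contig had 107.4 (CK) and 0.02 TPM (LP) in roots and 3.78 (CK) and 12.3 TPM (LP) in shoots. The LP root value lies under 3 fragments, which at lengths around this one are worth between 0.0279 and 0.0634 TPM in that library.

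ABCB11 had 10 contigs and no common pattern. Its 1543 bp contig had 15.1 (CK) and 1.08 TPM (LP) in roots and 39.5 (CK) and 71.8 TPM (LP) in shoots. Its 544 bp contig had 169.7, 10.3, 0 and 2.03 TPM, and its 274 bp contig had 1.78, 117.7, 0 and 0 TPM. Summed over contigs, ABCB11 was at 334 (CK) and 183 TPM (LP) in roots and 60.8 (CK) and 144 TPM (LP) in shoots, with a root log2 ratio of -0.86 for the sum.

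Subfamily C was the group whose summed level was higher in LP roots, at 480 (CK) and 609 TPM (LP) in roots and 584 (CK) and 712 TPM (LP) in shoots. ABCC3, which in Arabidopsis moves glutathione conjugates and chlorophyll breakdown products, contributed much of this. Its 996 bp contig had 36.4 (CK) and 95.2 TPM (LP) in roots and 15.7 (CK) and 19.9 TPM (LP) in shoots (log2 ratio 1.36 in roots, 1.98 scaled). Its 3350 bp contig had 17.1, 34.5, 19.1 and 49.5 TPM, and its 754 bp contig 18.5, 46.4, 17.0 and 28.7 TPM. LP roots were above CK roots on each of these contigs, and over 12 contigs ABCC3 summed to 73.2 TPM in CK roots and 211 in LP roots. ABCC13 on a 5180 bp contig, chosen here after its values were seen, had 7.87 (CK) and 48.1 TPM (LP) in roots and 7.44 (CK) and 11.3 TPM (LP) in shoots, and LP roots stood apart.

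The best-known vacuolar carrier of the subfamily went the other way. ABCC2, which in Arabidopsis stores phytochelatin complexes and anthocyanins, had 95.0 (CK) and 21.9 TPM (LP) in roots and 38.7 (CK) and 52.4 TPM (LP) in shoots on its 5305 bp contig, 4.35-fold lower in LP roots (log2 ratio -2.07, -1.47 scaled). Its 1187 bp contig had 22.3, 15.0, 60.7 and 62.3 TPM and passed the size rule between media in neither tissue. ABCC5, the phytate transporter of Arabidopsis and so a carrier of stored phosphate, was near level between media. Its 3869 bp contig had 32.4 (CK) and 23.1 TPM (LP) in roots and 57.8 (CK) and 43.5 TPM (LP) in shoots, and the ABCC5 sum was 59.4, 62.6, 63.2 and 52.9 TPM. ABCC8 was listed at 0 in LP roots on each of its 10 contigs. Only 3 of them were called lower there, and the remaining ABCC8 contigs were listed at 0 in CK roots too. The ABCC8 sums were 35.8 TPM in CK roots and 89.6 (CK) and 63.2 TPM (LP) in shoots. No contig carried the name ABCC1.

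**Figure D3:**
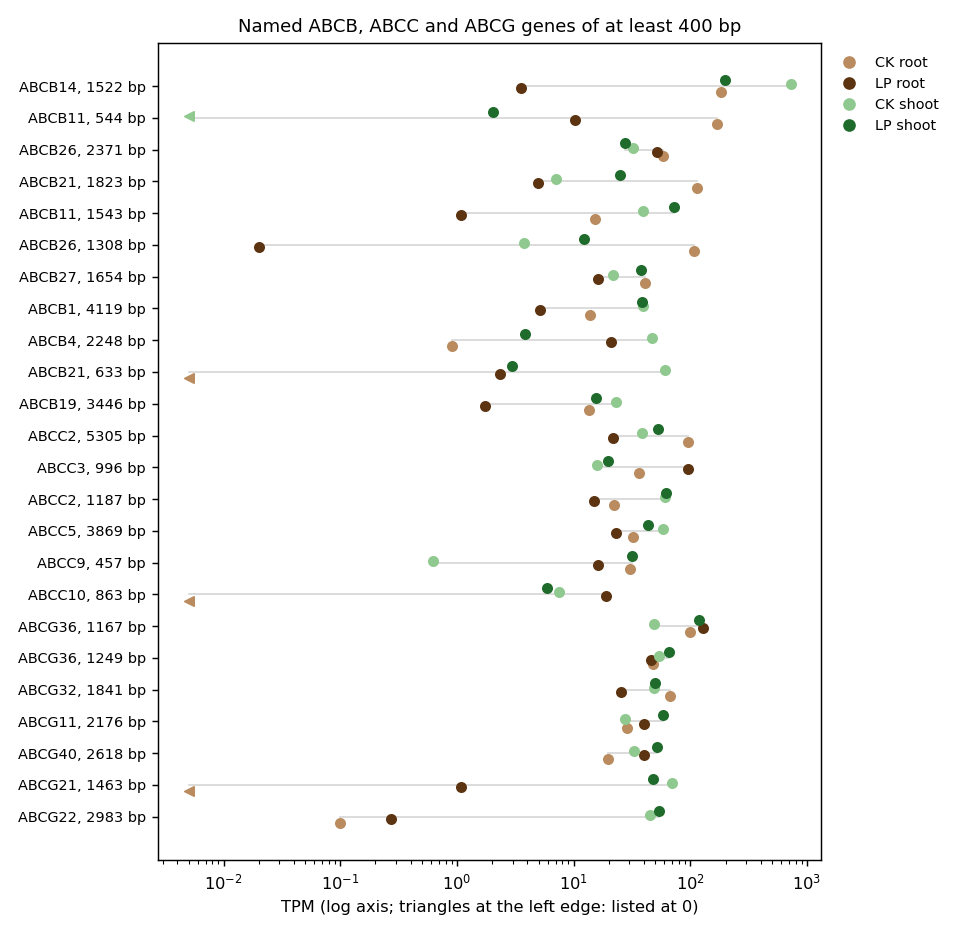
TPM (log axis) of the named ABCB, ABCC and ABCG contigs of at least 400 bp in CK roots (light brown), LP roots (dark brown), CK shoots (light green) and LP shoots (dark green), with triangles at the left edge for values listed at 0. ABCB14 spans 3.50 to 729.4 TPM, while the points of ABCG36 of 1249 bp lie between 45.9 and 64.9 TPM.

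Subfamily G was lower in LP roots by its sum and level by its longer contigs. Its sum was 1077 (CK) and 520 TPM (LP) in roots and 1135 (CK) and 1092 TPM (LP) in shoots, but over contigs of at least 400 bp it was 432, 456, 735 and 869 TPM. The gap in roots came from short contigs such as ABCG39 of 202 bp, ABCG24 of 235 bp and ABCG35 of 228 bp, which had 155.1, 126.6 and 103.1 TPM in CK roots and were listed at 0 in LP roots. Across all members, contigs under 400 bp with at least 5 TPM in a single library and 0 elsewhere numbered 5 in CK roots, at 74.7 to 166 TPM, and 8 in LP roots, at 8.67 to 17.9 TPM. The shoot libraries held more short contigs of that kind. With phosphate there were 20, at 9.81 to 47.8 TPM, and without it 15, at 9.62 to 29 TPM. Contigs of 400 bp or more of that kind numbered 0 in CK roots and 1 in LP roots, and 0 (CK) and 3 (LP) in shoots. None of these counts has a plant-matched background.

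The longer ABCG36 contigs differed little between media in roots. ABCG36, the PEN3 transporter of defence compounds in Arabidopsis, had 99.1 (CK) and 128.8 TPM (LP) in roots and 48.9 (CK) and 119.5 TPM (LP) in shoots on its 1167 bp contig, and was 2.44-fold higher in LP shoots. Its 1249 bp contig had 48.1, 45.9, 54.2 and 64.9 TPM and its 1271 bp contig 10.8, 10.3, 33.6 and 97.1 TPM. The sum over 5 ABCG36 contigs was 206 (CK) and 188 TPM (LP) in roots and 137 (CK) and 309 TPM (LP) in shoots, highest in LP shoots. ABCG40, an importer of abscisic acid, had 19.6, 40.4, 32.9 and 51.6 TPM on a 2618 bp contig and was 2.06-fold higher in LP roots.

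The exporters of cuticle lipids differed from each other in roots. ABCG11 on a 2176 bp contig had 28.9 (CK) and 40.1 TPM (LP) in roots and 27.4 (CK) and 58.7 TPM (LP) in shoots. Its LP to CK log2 ratio was 0.46 in roots (1.07 scaled) and 1.07 in shoots (0.95 scaled), so scaling moved it across the size rule in both tissues. ABCG32 on an 1841 bp contig had 67.5, 25.3, 48.9 and 50.2 TPM, with a root ratio of -1.38 that became -0.78 after scaling. Among the 11 contigs of these 2 names, 2 were higher and 1 lower in LP roots, and 5 higher and 2 lower in LP shoots. Over plant-matched contigs 26.5% were higher and 26.2% lower in LP roots, and 22.1% and 18.9% in LP shoots.

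Several ABCG contigs had a strong tissue bias. ABCG22, which acts in stomatal closure, had 0.10 (CK) and 0.27 TPM (LP) in roots and 45.5 (CK) and 54.0 TPM (LP) in shoots on a 2983 bp contig. ABCG21 on a 1463 bp contig was listed at 0 in CK roots and had 1.08 TPM in LP roots, against 69.2 (CK) and 47.8 TPM (LP) in shoots. Both were thus far higher in shoots than in roots. Neither passed the size rule between shoot media, while ABCG21 passed it in roots. ABCG14 and ABCG25 were examples of the opposite, chosen after their values were seen. ABCG14, which sends cytokinin from root to shoot in Arabidopsis, had 44.0, 41.1, 8.46 and 10.5 TPM on a 1552 bp contig. ABCG25, an exporter of abscisic acid, had 30.6 (CK) and 25.0 TPM (LP) in roots and 0.04 (CK) and 0.19 TPM (LP) in shoots on an 1118 bp contig.

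The other ABC subfamilies include proteins that do not carry solutes. ABCE and ABCF proteins lack membrane spans and act with ribosomes. Over plant-matched contigs 26.5% were higher and 26.2% lower in LP roots, or 31.9% and 20% after scaling. Of the 11 ABCE and ABCF contigs 1 was higher and 1 lower in LP roots, or 4 and 1 after scaling. ABCF3 of 2018 bp was the lower one, with 198.5 (CK) and 42.1 TPM (LP) in roots and 29.5 (CK) and 38.5 TPM (LP) in shoots. ABCI17, which in Arabidopsis is the nucleotide-binding partner (STAR1) of ALS3 and takes part in the root growth response to low phosphate, had 17.6, 26.03, 33.2 and 50.7 TPM on a 1032 bp contig. LP was above CK in both tissues, with log2 ratios of 0.54 in roots (1.14 scaled) and 0.60 in shoots (0.48 scaled), and neither unscaled ratio passed the size rule. ABCI20 of 447 bp was listed at 0 in CK roots and had 25.6 TPM in LP roots, against 12.6 (CK) and 6.54 TPM (LP) in shoots.

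In shoots the comparison of media gave more members higher than lower in LP. By the size rule 81 were higher (28.5%) and 57 lower (20.1%), against 22.1% and 18.9% of plant-matched contigs, so the lower share was near the background; over the whole table the shares were 28% and 16%. Higher and lower were 23 and 14 of the DTX contigs, 22 and 12 of ABCB, 17 and 8 of ABCC, 15 and 19 of ABCG and 4 and 4 of the other ABC. Among contigs above 0 in both shoot libraries the median log2 ratio was 0.25 for 47 DTX, 0.51 for 43 ABCB, 0.43 for 41 ABCC and 0.07 for 38 ABCG contigs, beside 0.02 over 20640 plant-matched contigs.

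Contigs that were higher in LP shoots came from several groups. DTX16 of 1183 bp had 24.7 (CK) and 30.3 TPM (LP) in roots and 20.1 (CK) and 65.3 TPM (LP) in shoots. DTX19, called ALF5 in Arabidopsis for its role in lateral root formation, had 23.5, 11.6, 7.72 and 53.8 TPM on a 792 bp contig. Each of these DTX contigs, chosen after their values were seen, was highest in LP shoots. ABCC9 of 457 bp had 30.6 (CK) and 16.1 TPM (LP) in roots and 0.62 (CK) and 31.5 TPM (LP) in shoots, and CK shoots alone were low, at about 4 fragments against 246 in LP shoots. ABCG36 of 344 bp had 43.9, 2.23, 0 and 26.6 TPM. The rest of the 6 highest ratios in LP shoots were short contigs listed at 0 in CK shoots. They were ABCB8 of 216 bp, ABCB11 of 300 bp, ABCB13 of 315 bp and DTX18 of 291 bp. Their LP shoot levels were 28.97, 23.37, 19.92 and 17.45 TPM. Among the lowest ratios in LP shoots, ABCG22 of 232 bp, DTX8 of 209 bp, ABCG40 of 331 bp, ABCG41 of 268 bp, ABCB15 of 210 bp and DTX2 of 208 bp were listed at 0 in the other libraries and had 47.8, 34.5, 32.3, 31.7, 29.7 and 29.3 TPM in CK shoots. Those 6 contigs were all shorter than 400 bp.

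Root and shoot ratios of the same member are set side by side next; they rest on different libraries. Lower in LP roots and higher in LP shoots were 19 members (6.69%), against 4.11% of plant-matched contigs, of which 7 were ABCB and 7 DTX. Higher in LP roots and lower in LP shoots were 11 members (3.87%), against 3.57%. In both tissues 16 members were higher (5.63%) against 6.77% of plant-matched contigs, and 7 were lower (2.46%) against 4.35%, of which 6 were DTX. Of the 19 members, DTX29 of 1418 bp had 19.7 (CK) and 3.54 TPM (LP) in roots and 5.76 (CK) and 19.3 TPM (LP) in shoots, and ABCB29 of 269 bp had 80.3, 7.29, 1.18 and 24.8 TPM. Of the 11, ABCG20, an Arabidopsis suberin exporter, had 6.22 (CK) and 26.8 TPM (LP) in roots and 49.1 (CK) and 10.9 TPM (LP) in shoots. The difference between tissues was not tested, since each ratio comes from 1 pair of libraries.

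**Figure D4:**
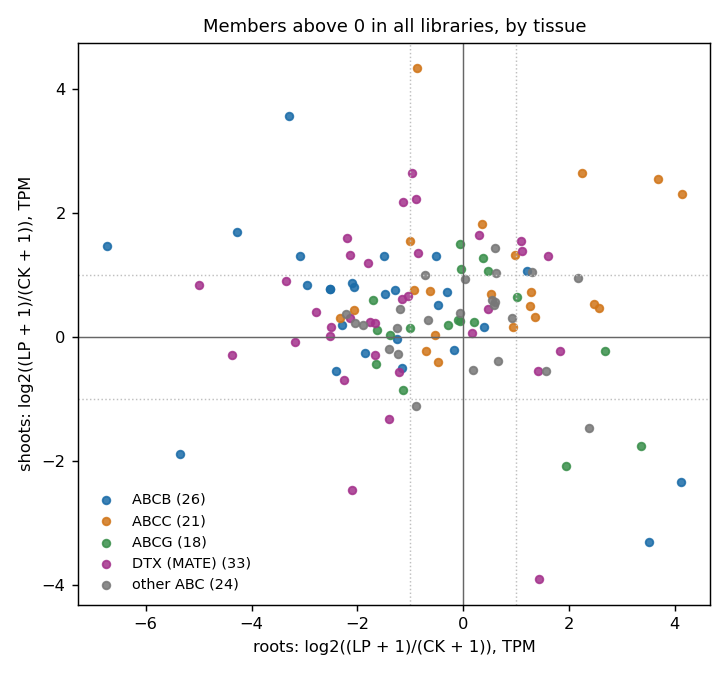
Log2((LP + 1)/(CK + 1)) in roots (horizontal) and in shoots (vertical) of the 122 members above 0 in every library, coloured by group, with dotted lines at log2 ratios of 1 and -1. ABCB contigs (blue) and DTX contigs (purple) lie mostly left of 0, and the ABCC contigs (orange) at the right reach root ratios of 4.13.

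Roots were also set against shoots within each medium by the same rule. These comparisons share libraries with those of the media, so they are not separate evidence. With phosphate, 69 members were higher in roots (24.3%) and 116 lower (40.8%), against 16.9% and 44.9% of plant-matched contigs and 14.8% and 30.2% of the whole table. The DTX group leaned to roots, with 28 contigs higher (39.4%) and 21 lower, whereas 13 ABCG contigs were higher and 34 lower. ABCB had 14 higher and 28 lower, ABCC 10 and 23, and the other ABC 4 and 10. Among 38 DTX contigs above 0 in both libraries the median log2 ratio of CK roots to CK shoots was 1.12, beside -0.22 over plant-matched contigs.

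Without phosphate more DTX contigs were lower than higher in roots, though their higher share stayed above that of plant-matched contigs. There, 53 members were higher in roots and 152 lower (53.5%), against 16.1% and 51.5% of plant-matched contigs and 37.6% and 33.9% of the whole table. Of the DTX contigs 17 were higher (23.9%) and 40 lower, and of the ABCB contigs 7 and 41 (67.2%). The ABCC group had 14 higher and 27 lower, the ABCG group 9 and 31, and the other ABC 6 and 13. Over the 11284 scaling contigs the scaling median of LP roots less that of LP shoots was -0.86. After scaling 71 members were higher in LP roots and 129 lower, against 23.9% and 40.3% of plant-matched contigs. In bulk RNA, fewer cells of a type and less RNA per cell cannot be told apart.

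**Figure D5:**
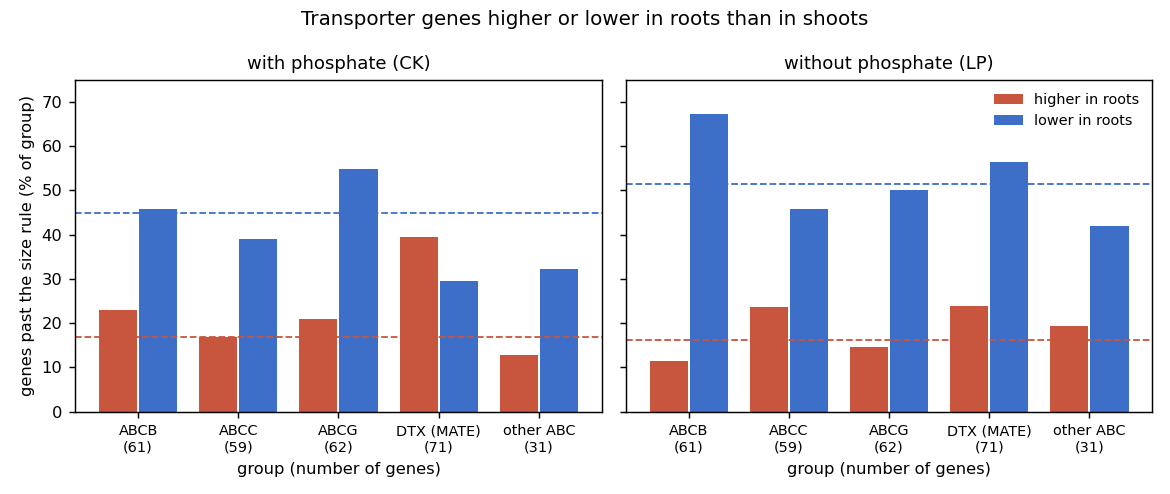
Share of each transporter group (percent of its contigs) called higher (red) or lower (blue) in roots than in shoots, with phosphate (left) and without (right), and dashed lines at the same shares over all plant-matched contigs. With phosphate the red bar of DTX reaches 39.4% against a red line at 16.9%, and without phosphate it is 23.9% against a line at 16.1%.

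Genes that supply or share routes with these carriers were counted by the same rule, under which 26.5% of plant-matched contigs were higher and 26.2% lower in LP roots, and 22.1% and 18.9% in LP shoots. Of 10 contigs matched by citrate synthase or aconitase names, which included ATP-citrate synthase, 0 were higher and 5 lower in LP roots. Mitochondrial citrate synthase on a 3502 bp contig was at 60.2 (CK) and 12.8 TPM (LP) in roots and 22.3 (CK) and 16.1 TPM (LP) in shoots. The malate channels named ALMT, which also release an organic acid, had 3 higher (20%) and 5 lower (33.3%) of 15. Of 25 flavonoid enzyme contigs 7 were higher and 12 lower in LP roots, and 6 and 10 in LP shoots. PIN auxin exporters, which work beside ABCB carriers, had 1 higher and 3 lower of 8 in LP roots. Of 43 contigs matched by cutin, wax and suberin names 8 were higher and 4 lower in LP roots, and 9 and 16 in LP shoots. The match also took in contigs named 1-acyl-sn-glycerol-3-phosphate acyltransferase 4 and 5, which are not cutin or suberin names. The first of them (0 TPM in CK roots, 8.79 in LP roots) was among those higher in LP roots. Glutathione S-transferases, which make the conjugates that ABCC proteins carry, had 10 higher (26.3%) and 13 lower (34.2%) of 38 in LP roots. The ALMT and glutathione S-transferase shares lay near those of all plant-matched contigs.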

How the data were processed

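Abundances were deposited as TPM for each assembled gene, next to a length in base pairs and annotation columns, per the file header. Column sums near the fixed TPM total were checked. The submitters' processing notes list cutadapt 1.9 and FastQC; how contigs were assembled and quantified is not given in the sources used here. No genome was used. Members and lists were chosen with earlier results of these data known.

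From the deposited TPM, log2 ratios used a pseudocount of 1 TPM, which understates changes of low genes. A contig was called at a log2 ratio of 1 in size and 1 TPM in the larger library, over the whole table. Folds are plain TPM ratios and are not given where a library is listed at 0. With 1 library per group no p-value was computed. Fragments per TPM came from steps between low values of contigs with 1 transcript (whole within tolerance for 80.2%, 98.7%, 97.7% and 87.2% of them in CK roots, LP roots, CK shoots and LP shoots, 6.76% to 10.6% by chance) and are extrapolated for longer contigs. The code of the calls was run on simulated fold changes without noise. That run checked the code and cannot show how often the size rule errs in these libraries.

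Named contigs were the 6 highest and 6 lowest ratios between media in each tissue (at least 5 TPM), the 3 highest and 3 lowest between tissues in each medium, the 3 most abundant of each main group, contigs of names of known role and the 6 with the largest opposite ratios; others come from the most abundant members and were chosen after their values were seen. Alternatives were a pseudocount of 0.1 TPM, no minimum, a minimum of 5 TPM, median scaling, a log2 threshold of 2, contigs of at least 400 bp, sums per protein name and contigs above 0 in both libraries. Analyses used Python 3.11.15, numpy 2.4.6, pandas 2.3.3, scipy 1.17.1 and matplotlib 3.10.9.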

Additional observations from a re-analysis of the deposited data

Results flagged for a closer look

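For 10 named contigs the log2 ratio of LP to CK passed the size rule in opposite directions in roots and shoots, and the medians of 3 groups had opposite signs in the 2 tissues. Each tissue has 1 library per medium, so none of these differences was tested.

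Over contigs above 0 in both libraries, the ABCB median was -1.67 in roots and 0.51 in shoots, the DTX median -1.66 and 0.25, and the ABCG median -0.10 and 0.07. The ABCG values lie near 0, and scaling gave 0.35 in roots and -0.03 in shoots, which turned both signs.

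Among contigs above 0 in every library, the ratio in roots minus that in shoots was -8.20 for ABCB26 of 1308 bp, -5.97 for ABCB21 of 1823 bp and 6.81 for ABCB4 of 2248 bp. ABCB21 and ABCB4 are close relatives, and these contigs of theirs had mirror-image patterns. Other ABCB21 contigs did not share that pattern, such as the one of 633 bp given below.

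The other contigs were listed at 0 in some library, so only their highest level is given. In CK roots ABCB11 of 544 bp reached 170 TPM, DTX33 of 338 bp 116 TPM, ABCG24 of 266 bp 56.6 TPM, DTX54 of 310 bp 55.3 TPM, ABCG36 of 344 bp 43.9 TPM and DTX42 of 390 bp 26.1 TPM, each lower in LP roots and higher in LP shoots. In CK shoots ABCB21 of 633 bp reached 60.7 TPM, against 2.98 TPM in LP shoots, 2.34 TPM in LP roots and 0 in CK roots.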

How the results depend on the processing

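Of the lead counts recomputed under an alternative, 62 stayed within 1.5 times of the reported count and 34 did not, and 110 recomputed medians stayed within the order-statistic interval over members while 10 did not. Settings that drop contigs or demand a larger ratio lower counts by construction. At a log2 threshold of 2, LP roots had 36 members higher and 52 lower (5 ABCC and 21 DTX lower), 41 and 37 in LP shoots, and 35 were higher in LP roots than in LP shoots. Shares over plant-matched contigs were not computed at that threshold or for sums per protein name, so those counts have no background. Over the 179 contigs of at least 400 bp, 39 members were higher in LP roots, 45 higher and 26 lower in LP shoots, 44 higher (17 of them DTX) and 74 lower in CK roots than shoots, and 31 higher in LP roots than shoots. In that order the member shares were 21.8%, 25.1%, 14.5%, 24.6%, 41.3% and 17.3%. The shares over plant-matched contigs of that length were 24.5%, 17.1%, 15.1%, 17.5%, 45.8% and 12.3%. Summed over the 120 protein names, 23 were higher and 43 lower in LP roots (12 ABCB, 2 ABCC and 15 DTX lower), 25 and 19 in LP shoots with a median of 0.01, 29 and 48 in CK roots against shoots (13 DTX higher), and 18 and 61 in LP roots against shoots. Among members above 0 in both libraries, 28 were higher in LP roots (5 ABCC lower), 47 higher and 30 lower in LP shoots, 45 and 32 in CK roots against shoots, and 30 and 87 in LP roots against shoots. These were out of 142, 196, 136 and 169 members. The shares over plant-matched contigs above 0 in both were 18.9% higher and 39.7% lower in LP roots and 16.3% and 16.5% in LP shoots. They were 23.4% and 32.2% in CK roots against shoots and 14.6% and 48.3% in LP roots against shoots. Over contigs above 0 in both, the median was -0.91 in roots for members, -1.67 for ABCB, -0.10 for ABCG and -1.66 for DTX, and 0.15 for members, 0.40 for ABCB and 0.07 for ABCC in CK roots against shoots. Median scaling moved the other ABC median in roots to 0.77 and that of members in LP roots against shoots to -0.56.

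Summing over a protein name also reversed 23 ratios of named contigs, because other contigs of the name went the other way. For LP against CK roots the sums gave -0.86 for ABCB11 (contigs of 300, 302 and 274 bp), -2.04 for ABCB21 of 633 bp, 0.08 for DTX41 of 1712 bp and -0.73 for DTX46 of 890 bp. For LP against CK shoots they gave -0.32 for ABCB21 of 1823 bp, -1.24 for ABCG24 of 266 bp and -0.94 for DTX42 of 390 bp. For CK roots against shoots they gave -0.99 for ABCC3 of 996 bp, 0.55 for ABCC10 of 863 bp, 0.24 for ABCC2 of 1187 bp, 1.27 for ABCB21 of 633 bp, 0.35 for DTX46 of 890 bp, 2.44 for ABCB11 of 1543 bp and -1.07 for ABCB14 of 218 bp. For LP roots against shoots they gave 0.06 for ABCG24 (contigs of 235 and 266 bp), 0.34 for ABCB11 (300 and 1543 bp), -0.11 for ABCC10 of 863 bp, 0.95 for DTX42 of 390 bp and -0.33 for ABCB4 of 2248 bp.

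No paired analysis was possible because each group is 1 library and no test was run. The fragment steps are least certain in CK roots, where 80.2% of low values were whole. Differences between plants were not measured.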

Other observations

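Sequences outside the member list carried similar names. Another 32 contigs had an ABC transporter or DETOXIFICATION name but no plant match, and 19 of them were higher (59.4%) and 7 lower (21.9%) in LP roots, against 49% and 17.1% of the whole table; 18 of the 32 were listed at 0 in CK roots and called higher in LP roots. A further 15 plant-matched contigs with drug resistance or MATE efflux names did not contain the words of the rule. Of these 1 was higher and 6 were lower in LP roots, and 7 were higher and 0 lower in LP shoots, against 26.5% higher and 26.2% lower of plant-matched contigs in roots and 22.1% and 18.9% in shoots.

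By annotated site, 13 of the 49 members with a vacuole term were higher (26.5%) and 8 lower (16.3%) in LP roots. Of the 115 members with a plasma membrane term 25 were higher (21.7%) and 24 lower (20.9%) there. The shares of both lists lay near or below those of all plant-matched contigs, 26.5% higher and 26.2% lower. Of the 8 with a plastid term 2 were higher and 5 lower.

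Within the flavonoid enzymes the LP shoot library was lower for leucoanthocyanidin dioxygenase of 1324 bp (260.1 to 39.5 TPM) and for naringenin dioxygenase of 1362 bp (160.6 to 35.6 TPM). Others were higher there, such as dihydroflavonol 4-reductase of 1040 bp (44.9 to 159.6 TPM) and anthocyanidin reductase of 699 bp (28.3 to 71.95 TPM). In roots that anthocyanidin reductase contig was at 33.5 TPM in CK and 142.4 in LP, while the leucoanthocyanidin dioxygenase contig was at 7.68 and 0.06 TPM. The 1441 bp contig of anthocyanidin reductase was lower in LP in both tissues, from 9.01 to 2.09 TPM in roots and from 204.0 to 46.9 TPM in shoots. These contigs are examples from a list with calls in both directions.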
